A study of Bos taurus with 20 samples.

Results

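The genes described here are 10 adhesion molecules of the immunoglobulin superfamily: NECTIN1, PVR, ALCAM, CD200, NCAM1, NCAM2, L1CAM, VCAM1, ICAM1 and PECAM1. They were found by symbol among the 33063 named genes of the count table, and all 10 were present. RNA sequencing had been performed on 20 bovine mesenchymal stem/stromal cell (MSC) clones, 10 adipogenic (A) and 10 non-adipogenic (N), with 1 library per clone. Every clone was the progeny of a single sorted cell from visceral fat of a Holstein Friesian x Aberdeen Angus calf, expanded in growth medium with serum and bFGF. The RNA came from cells that had not been differentiated, and no allele or treatment separated the groups. A separate portion of each clone had been taken through adipogenic differentiation. A clones were those that accumulated lipid most strongly, and N clones were those that did not differentiate. The labels name Oil Red O as the lipid stain, whereas the study's methods name BODIPY. From animals 17 and 20 there was 1 A and 1 N clone apiece, and from animals 22 and 23 there were 4 A and 4 N clones apiece. Clones are named below by animal and clone number (22-18 is clone 18 of animal 22). Clones of the same animal share a donor and a culture, and each is 1 sorted cell, so the spread between clones includes differences between founder cells.

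Immunoglobulin-family adhesion molecules are transmembrane or lipid-anchored proteins that carry immunoglobulin-like domains outside the cell, through which they bind the same molecule, a relative or an integrin on a neighbouring cell. Nectins and nectin-like molecules help to build cell junctions, NCAM and L1 proteins are best known from neurons, and VCAM1, ICAM1 and PECAM1 are best known from blood vessels, where they guide leukocytes out of the circulation. On stromal cells, VCAM1, ICAM1, ALCAM and NCAM1 are used as surface markers of MSC preparations, and VCAM1 and ICAM1 are also induced by inflammatory cytokines.

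Sequencing depth, as the total of counts over named genes, was 14615493 to 29185355 for A clones and 14908802 to 43111345 for N clones. All levels are CPM, the count of a gene relative to the library total after scaling by the TMM factor, which corrects for differences in RNA composition. CPM is not corrected for transcript length, so levels are compared between clones and not between genes. Of the 8 MSC markers examined (ITGB1, CD44, THY1, ENG, NT5E, PDGFRA, PDGFRB and COL1A1), edgeR called 0 as different between A and N clones, with 0 at an unadjusted p under 0.05, and DESeq2 also called 0. Their summed level lay between 12189 and 24233 CPM in A clones and between 9068 and 20980 CPM in N clones. Of 10 macrophage and leukocyte markers, PTPRC did not exceed 7 counts in any clone, whereas CD68 reached 137, CD14 135 and CD163 52 counts, and CSF1R, with at most 35 counts, was higher in all 10 A clones than in every N clone. In such bulk libraries, fewer cells with a transcript and less of the transcript per cell cannot be told apart.

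Among the adhesion molecules, NECTIN1 and PVR rose and ALCAM and CD200 fell in A compared to N clones, while NCAM1, L1CAM, VCAM1, ICAM1 and PECAM1 did not pass the test. NCAM2 gave 1 count in 1 clone and was not tested. Thus, 4 of the 9 members that passed the filter on low counts, 44.4%, were differentially expressed when edgeR's quasi-likelihood test was run with animal as a block and Benjamini-Hochberg adjustment over all genes (adjusted p under 0.05). Across all 12900 genes tested, 20.6% were called. The members were chosen with earlier results of these data known, so the shares and medians given here are a description and not a test of enrichment. The 2 members that rose compare with 10.3% of all genes higher in A clones, and the 2 that fell with 10.3% of all genes lower. A change of at least 2-fold was found for 3 members, NECTIN1, PVR and CD200, compared with 5.76% of all genes. The median log2 fold change was 0.57 over the 9 members and -0.01 over all genes tested. There were 0 members in which every A clone lay above or below every N clone, a separation seen in 0.318% of all genes.

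**Figure D1:**
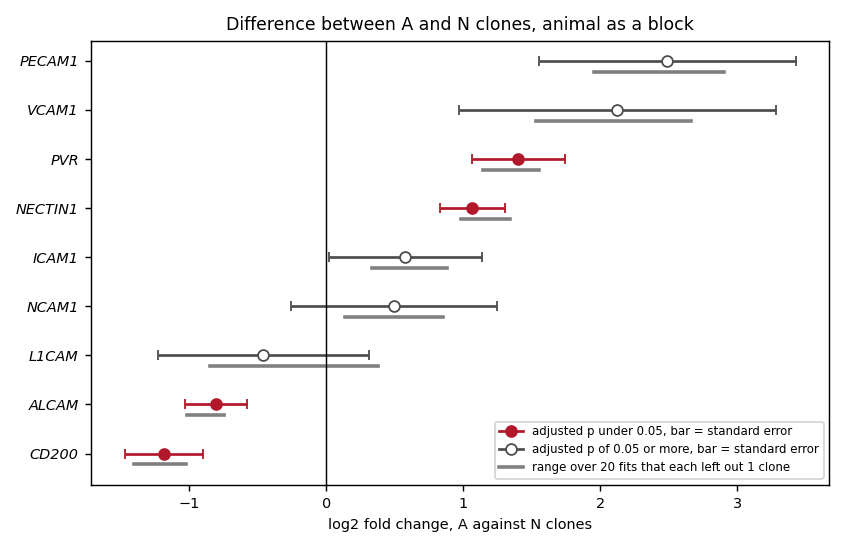
Log2 fold change of each tested member, A against N clones, with animal as a block. Points are the fitted values and thin bars their standard errors, red for an adjusted p under 0.05, and the thick grey bars give the range over 20 fits that each left out 1 clone. PVR (1.40) and NECTIN1 (1.07) lie above 0 and ALCAM (-0.81) and CD200 (-1.19) below 0 over the whole of their grey ranges. The grey ranges of NCAM1, VCAM1, ICAM1 and PECAM1, which did not pass the test, also lie wholly above 0. That of L1CAM crosses 0.

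NECTIN1, a junctional molecule that binds other nectins on adjacent cells, had the least spread among A clones. Its level ran from 17.1 to 36.9 CPM in A clones, with a median of 25.4 CPM, and from 6.09 to 32.3 CPM in N clones, with a median of 11.3 CPM. The groups overlapped through a single library: 9 of 10 N clones lay below every A clone, and the exception was N clone 22-18, at 32.3 CPM. The next highest N clone stood at 12.9 CPM. Means were 25.4 ± 5.44 CPM in A and 12.4 ± 7.40 CPM in N clones (± SD, n = 10 per group), a 2.09-fold difference. The log2 fold change was 1.07 (SE 0.237, edgeR adjusted p = 0.00652), and a two-sided exact permutation test of the mean log2 CPM within animals gave p = 0.000714, where the smallest value it can give is 0.000102. NECTIN1 was higher in A clones in 4 of 4 animals, by 1.08, 1.70, 1.08 and 1.12 on the log2 scale in animals 17, 20, 22 and 23. In animal 23 all 4 A clones lay above all 4 N clones, from 20.9 to 28.3 CPM against 9.02 to 12.9 CPM. A fit of animal 23 alone gave a log2 fold change of 1.12 (edgeR adjusted p = 0.0108), and a fit of animal 22 alone, which holds clone 22-18, gave 0.84 (edgeR adjusted p = 0.401). Clone 22-18 was also the most deeply sequenced library, with 43111345 counts, of which 1268 fell on NECTIN1, and leaving it out gave a log2 fold change of 1.34.

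PVR, a nectin-like molecule that binds nectins and is recognised on target cells by receptors of T and natural killer cells, differed most among the members called. A clones ranged from 132 to 726 CPM with a median of 395 CPM, and N clones from 17.1 to 342 CPM with a median of 168 CPM. For PVR, 6 of 10 A clones exceeded every N clone. The lowest N values belonged to clones 20-15 (17.1 CPM) and 17-23 (41.3 CPM), and the lowest A value to clone 17-57 (132 CPM), while A clone 20-106 stood at 374 CPM. With means of 402 ± 189 CPM in A and 172 ± 96.4 CPM in N clones (± SD, n = 10 per group), the difference was 2.64-fold, with a log2 fold change of 1.40 (SE 0.342, edgeR adjusted p = 0.0106). The exact permutation test within animals gave p = 0.00143 (two-sided). PVR was also higher in A clones in 4 of 4 animals, but by unequal amounts. The difference was 4.44 on the log2 scale in animal 20, 1.67 in animal 17 and 1.57 in animal 23, in which all 4 A clones, at 416 to 726 CPM, lay above the N clones at 142 to 214 CPM. In animal 22 it was 0.46 and the clones overlapped, at 174 to 647 CPM for A and 145 to 342 CPM for N. Fitted alone, animal 23 gave a log2 fold change of 1.59 (edgeR adjusted p = 0.0106) and animal 22 one of 0.55 (edgeR adjusted p = 0.496). The difference between both animals, a log2 value of 1.04, did not pass the test (SE 0.488, edgeR adjusted p = 0.557).

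The other 12 nectins, nectin-like molecules and ligands examined gave 6 tested genes, of which 1 rose and 0 fell in A clones. For comparison with this list and those below, 10.3% of all genes tested were higher and 10.3% lower in A clones. The listed gene that rose was CADM1, a nectin-like molecule that binds itself across cell contacts. Its level was 121 ± 57.1 CPM in A and 28.5 ± 23.9 CPM in N clones (± SD, n = 10 per group). Its log2 fold change was 2.12 (SE 0.472, edgeR adjusted p = 0.00663), and 7 A clones exceeded every N clone. NECTIN3, the main partner of NECTIN1 and a partner of PVR, was measured at 139 ± 77.0 CPM in A and 86.9 ± 27.3 CPM in N clones, with a log2 fold change of 0.62 (SE 0.225, edgeR adjusted p = 0.0597). The lymphocyte receptors of PVR were at or near 0: CD226 reached 3 counts, TIGIT 7 counts and CD96 1 count in any clone.

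**Figure D2:**
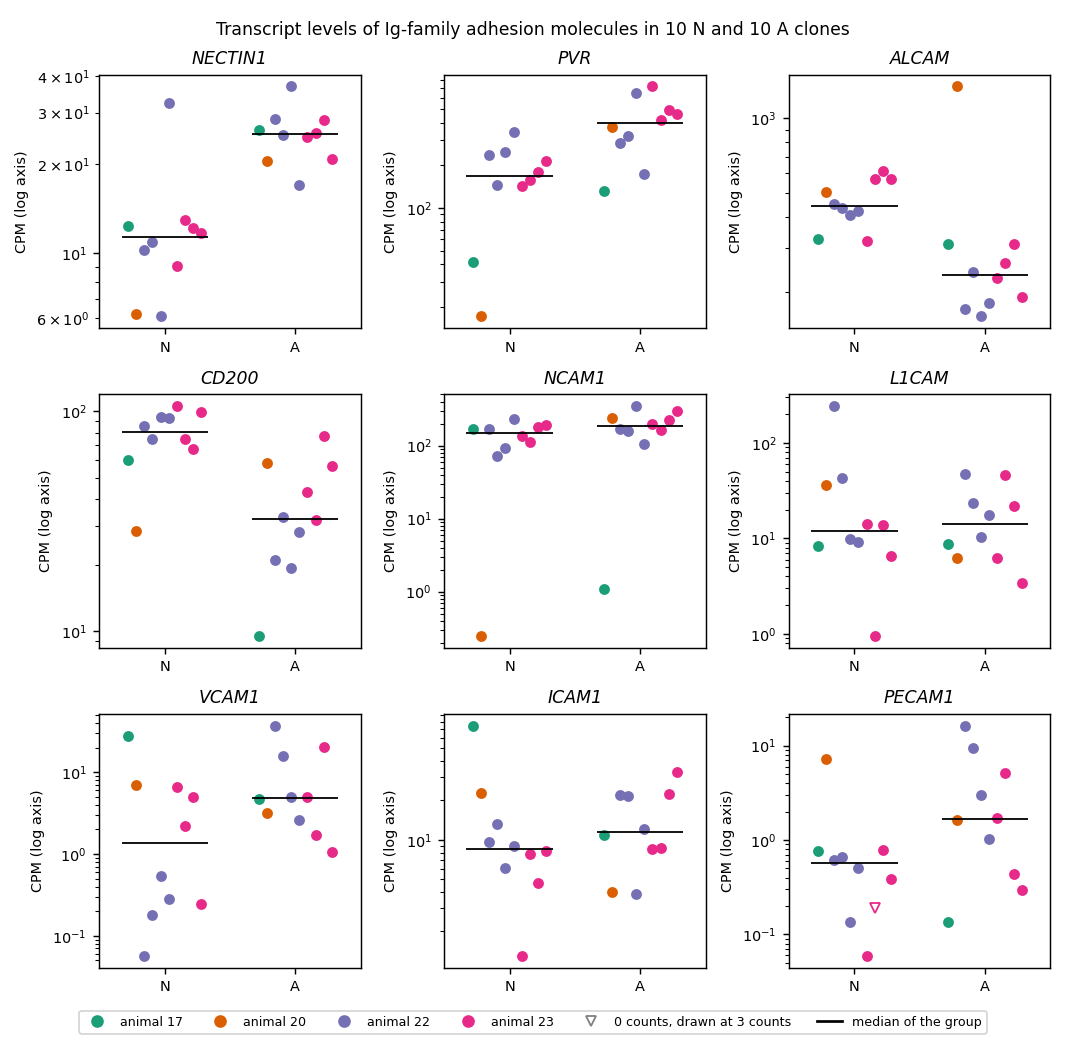
Transcript levels of the 9 tested members in CPM, on a log axis whose range differs between panels. Each point is 1 clone, coloured by animal, with N clones on the left and A clones on the right of each panel, and lines mark the group medians (n = 10). The triangle is a clone with 0 counts of PECAM1, drawn at the level of 3 counts. In the NECTIN1 panel 1 N clone, at 32.3 CPM, reaches the A clones, and in the ALCAM panel 1 A clone, at 1348 CPM, stands above all other clones.

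ALCAM, which binds itself and the lymphocyte receptor CD6, fell in A clones with 1 exception. A clones ranged from 160 to 1348 CPM with a median of 234 CPM, and N clones from 321 to 616 CPM with a median of 444 CPM. Of the A clones, 9 lay below every N clone, at 311 CPM or less, while A clone 20-106 exceeded every N clone at 1348 CPM, a value built on 27502 counts. Because of this clone, the mean of A clones, 340 ± 358 CPM, was closer to that of N clones, 463 ± 101 CPM (± SD, n = 10 per group), than the medians were. The log2 fold change was -0.81 (SE 0.227, edgeR adjusted p = 0.0209), a 1.75-fold lower level in A clones, and the exact permutation test within animals gave p = 0.00949 (two-sided). In each of animals 22 and 23 all 4 A clones lay below all 4 N clones. The A clones of animal 22 held 160 to 240 CPM and its N clones 408 to 453 CPM, and those of animal 23 held 191 to 311 CPM and 321 to 616 CPM, respectively. Animals 22 and 23 fitted alone gave log2 fold changes of -1.20 (edgeR adjusted p = 0.0189) and -1.06 (edgeR adjusted p = 0.0391). In animal 17 the clones were close, at 311 CPM for A and 328 CPM for N, and in animal 20 the order was the opposite, at 1348 CPM for A and 506 CPM for N. The call depended on the block: with condition alone in the model the log2 fold change was -0.44 (edgeR adjusted p = 0.371). CD6 did not exceed 1 count in any clone.

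CD200, which restrains myeloid cells through its receptor CD200R1, was the member with the largest fall. Levels in A clones ran from 9.47 to 77.3 CPM with a median of 32.5 CPM, and in N clones from 28.4 to 106 CPM with a median of 80.3 CPM. The groups overlapped, with 4 A clones below every N clone and 5 N clones above every A clone. Mean levels of 37.8 ± 20.8 CPM in A and 78.5 ± 22.9 CPM in N clones (± SD, n = 10 per group) corresponded to a 2.28-fold lower level in A, with a log2 fold change of -1.19 (SE 0.283, edgeR adjusted p = 0.00948). The exact permutation test within animals gave p = 0.00224 (two-sided). In animal 22 the groups were far apart, with 19.4 CPM in the lowest A clone, and with all A clones under the lowest N clone, at 74.7 CPM. In animal 23 the lowest N clone, at 67.7 CPM, was below the highest A clone, at 77.3 CPM. Fitted alone, animal 22 gave a log2 fold change of -1.78 (edgeR adjusted p = 0.0179), and animal 23 one of -0.74 that did not pass the test (edgeR adjusted p = 0.136). Animal 17 had the largest difference, from 60.2 CPM in its N clone to 9.47 CPM in its A clone, and animal 20 the opposite order, from 28.4 CPM in N to 58.2 CPM in A. The log2 difference between A and N was smaller in size in animal 23 than in animal 22 by 1.03 (SE 0.348), with an unadjusted p of 0.0100 in edgeR's test across all genes that did not pass adjustment (adjusted p = 0.412). CD200R1 was on the list of partners examined, but its symbol was not found among the named genes of the count table.

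NCAM1, the neural cell adhesion molecule, which is found on many cells outside the nervous system, was well expressed in 18 clones and nearly absent from the other two. A clones ranged from 1.09 to 349 CPM with a median of 183 CPM, and N clones from 0.246 to 232 CPM with a median of 150 CPM. Its lowest levels were found in A clone 17-57, with 16 counts, and in N clone 20-15, with 4 counts, whereas the next lowest values were 104 CPM among A and 71.6 CPM among N clones. Each of these clones had a partner from the same animal at a usual level: N clone 17-23 had 169 CPM and A clone 20-106 had 237 CPM. The log2 difference, A minus N, was therefore -7.11 in animal 17 and 9.33 in animal 20, compared to 0.48 in animal 22 and 0.51 in animal 23. With means of 190 ± 97.7 CPM in A and 135 ± 67.9 CPM in N clones (± SD, n = 10 per group), the log2 fold change was 0.49 (SE 0.751, edgeR adjusted p = 0.665). Without animals 17 and 20, an alternative chosen after the data were seen, the log2 fold change was 0.49 (edgeR adjusted p = 0.209). The SD of log2 CPM of NCAM1 was larger than that of 99.1% of tested genes over A clones and 98.6% over N clones. NCAM2, a paralogue of NCAM1 known mainly from olfactory neurons, gave 1 count, in A clone 22-11, and 0 counts in the other 19 clones, where a count of 0 allows between 0.0764 and 0.216 CPM depending on the library. These limits cover counting error only.

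Genes that modify or signal with NCAM1 were examined as a list of 9, of which 7 were tested, 2 rose and 0 fell. ST8SIA2, a sialyltransferase that adds polysialic acid to NCAM1, was detected in A clones at up to 15.9 CPM with a median of 4.30 CPM and in N clones at up to 2.67 CPM with a median of 0.0614 CPM. It was called higher in A clones (edgeR adjusted p = 0.0251) and 7 A clones exceeded every N clone. No fold change is given, since 5 of 10 N clones had 0 counts and the gene passed the filter through its level in A clones. Its call and the separation of its clones are therefore a description only. A clones 17-57 and 23-108 also had 0 counts, and N clones 22-18 and 22-17 had 105 and 48 counts. In ST8SIA4, the other polysialyltransferase, the log2 fold change was -0.40 (SE 0.717, edgeR adjusted p = 0.715). FGFR1, a growth factor receptor that NCAM1 and L1CAM can bind, rose with a log2 fold change of 0.95 (SE 0.214, edgeR adjusted p = 0.00686), from 161 ± 40.9 CPM in N to 312 ± 136 CPM in A clones (± SD, n = 10 per group).

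L1CAM, a neural adhesion molecule that is also made by some epithelia and by the mesothelium, had most of its N total in a single clone. Its level in A clones was 3.44 to 47.7 CPM with a median of 14.1 CPM, and in N clones 0.947 to 244 CPM with a median of 11.9 CPM. The highest value was that of N clone 22-5, at 244 CPM, and the next in order were A clone 22-11 (47.7 CPM), A clone 23-62 (45.5 CPM), N clone 22-9 (42.6 CPM) and N clone 20-15 (36.2 CPM). The groups overlapped, the means were 19.2 ± 16.0 CPM in A and 38.6 ± 73.3 CPM in N clones (± SD, n = 10 per group), and the log2 fold change was -0.46 (SE 0.771, edgeR adjusted p = 0.697). Without N clone 22-5 the log2 fold change was 0.38 (edgeR adjusted p = 0.684). The keratin KRT8, a mesothelial and epithelial marker, stood at 4779 CPM in clone 22-5, 2727 CPM in 22-9, 585 CPM in 22-11, 446 CPM in 22-16 and 159 CPM in 23-62, and 4 of these 5 clones held the 4 highest values of L1CAM. N clone 20-15, with L1CAM at 36.2 CPM, had KRT8 at 0.0614 CPM. Of 10 mesothelial markers 8 were tested, 0 rose and 1, MSLN, fell in A clones, and their summed level lay between 8.97 and 1217 CPM in A and between 9.31 and 10396 CPM in N clones. The summed level of the mesothelial markers and L1CAM did not follow the same order in all clones. The summed level was 639 CPM in N clone 23-10 and 366 CPM in N clone 23-22, above or near the 441 CPM of A clone 23-62. L1CAM stood at 14.2 CPM in clone 23-10 and at 0.947 CPM, its lowest value, in clone 23-22. KRT8 itself was low in both, at 2.83 CPM in clone 23-10 and 1.01 CPM in clone 23-22. The part of mesothelial-like expression in the level of L1CAM was not tested.

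Of 13 other genes of the NCAM, L1 and contactin family, 2 passed the filter on low counts, 1 rose and 0 fell. The gene that rose was CHL1, a close homologue of L1CAM, whose log2 fold change was 2.84 (SE 0.931, edgeR adjusted p = 0.0401) at low levels of 4.34 ± 5.23 CPM in A and 0.575 ± 0.974 CPM in N clones (± SD, n = 10 per group). The median in N clones was 0.21 CPM, so the size of this fold change is uncertain, and without animals 17 and 20 the call of CHL1 was lost.

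VCAM1, a receptor for integrins of leukocytes, was low in most clones and differed between A and N clones by unequal amounts in the 4 animals. A clones ranged from 1.06 to 37.3 CPM with a median of 4.81 CPM, and N clones from 0.0565 to 27.6 CPM with a median of 1.37 CPM. Of the N clones, 5 lay below every A clone, but N clone 17-23, at 27.6 CPM, was exceeded by A clone 22-11 alone. Mean levels were 9.69 ± 11.6 CPM in A and 4.98 ± 8.42 CPM in N clones (± SD, n = 10 per group), and the log2 fold change of 2.13 did not pass the test (SE 1.16, edgeR adjusted p = 0.195; exact permutation within animals, two-sided p = 0.0571). In animal 22 the N clones held 1 to 12 counts each, at 0.0565 to 0.538 CPM, and all 4 A clones lay above them at 2.62 to 37.3 CPM. The clones of animal 23 overlapped, at 1.06 to 20.5 CPM in A and 0.243 to 6.67 CPM in N. In animals 17 and 20 the A clone had the lower value, at 4.70 against 27.6 CPM and 3.14 against 7.0 CPM. Animal 22 alone gave a log2 fold change of 5.78 (edgeR adjusted p = 0.0470) and animal 23 alone one of 0.99 (edgeR adjusted p = 0.585). The log2 difference between A and N was smaller in animal 23 than in animal 22 (interaction of -4.78, SE 1.58). Its unadjusted p was 0.00913 in edgeR's test, and it did not pass adjustment across all genes (adjusted p = 0.409).

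ICAM1, which binds leukocyte integrins and is induced by cytokines, showed almost equal means in both groups. A clones lay between 3.87 and 32.99 CPM with a median of 11.5 CPM and N clones between 1.30 and 74.4 CPM with a median of 8.54 CPM. The highest N values, 74.4 CPM in clone 17-23 and 22.6 CPM in clone 20-15, came from the animals with 1 N clone each. Means were 14.7 ± 9.58 CPM in A and 15.7 ± 21.4 CPM in N clones (± SD, n = 10 per group), with a log2 fold change of 0.57 (SE 0.559, edgeR adjusted p = 0.481). The animals differed in order: the A minus N difference was -2.77 and -2.46 on the log2 scale in animals 17 and 20, 0.43 in animal 22 and 1.75 in animal 23, in which all 4 A clones, at 8.58 CPM or more, lay above the N clones, at 8.16 CPM or less. The direction also depended on the model, and was -0.088 with condition alone.

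PECAM1, a homophilic molecule of endothelial cells, platelets and leukocytes, was the lowest of the 9 tested members in counts. Its counts ran from 2 to 450 in A clones and from 0 to 117 in N clones. Levels were 0.136 to 16.3 CPM in A clones with a median of 1.66 CPM, and from 0 to 7.18 CPM in N clones with a median of 0.565 CPM. The count of 0 was found in N clone 23-22, where it allows up to 0.189 CPM. The A clones 22-11 (16.3 CPM) and 22-16 (9.51 CPM) exceeded every N clone, and the highest N value belonged to clone 20-15. The log2 fold change was 2.49 (SE 0.938, edgeR adjusted p = 0.0675), with means of 3.91 ± 5.21 CPM in A and 1.11 ± 2.15 CPM in N clones (± SD, n = 10 per group). The exact permutation test within animals gave p = 0.0381 (two-sided), and DESeq2's Wald test called PECAM1, at a log2 fold change of 2.54 (adjusted p = 0.00504). In animals 17 and 20 the A clone had the lower level, whereas in animal 22 all 4 A clones lay above all 4 N clones, at 1.04 to 16.3 CPM against 0.134 to 0.660 CPM. Without N clone 20-15 the log2 fold change was 2.91 (edgeR adjusted p = 0.0313), and without animals 17 and 20 it was 3.31 (edgeR adjusted p = 0.0137). Other endothelial markers were divided: CDH5 did not exceed 5 counts, KDR did not exceed 8 counts and CLDN5 had 0 counts in all clones, whereas VWF reached 491, EMCN 823, EGFL7 99 and TEK 60 counts, with VWF, EGFL7 and TEK found in all 20 clones. Of the 10 endothelial markers, which include PECAM1, 5 were tested, 1 rose (EGFL7) and 0 fell, and their summed level was 7.37 to 71.3 CPM in A and 1.36 to 42.4 CPM in N clones. Their part in the level of PECAM1 was not tested.

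**Figure D3:**
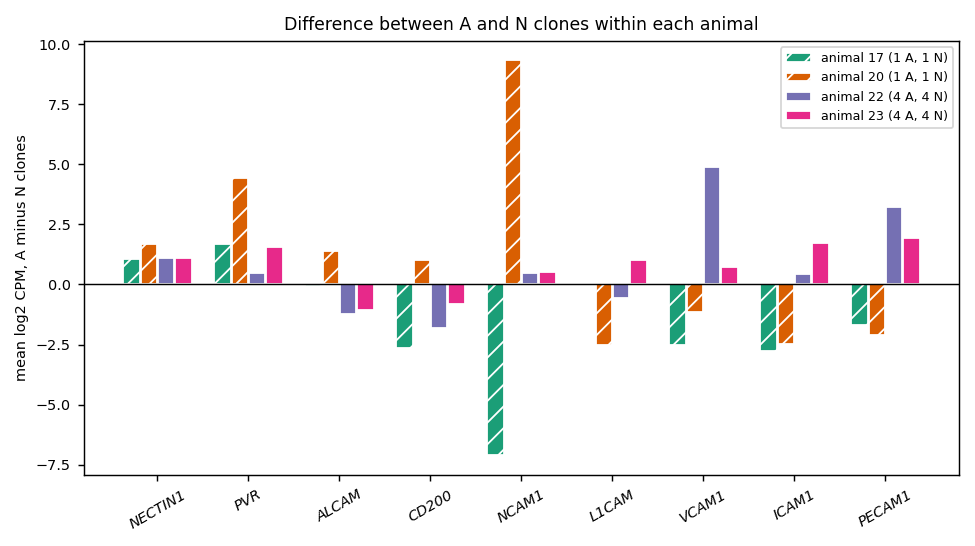
Difference in mean log2 CPM, A minus N clones, of each tested member within each animal. Hatched bars are animals 17 and 20, with 1 A and 1 N clone each and no replicate, and plain bars are animals 22 and 23, with 4 A and 4 N clones each. NECTIN1 and PVR are above 0 in 4 of 4 animals, and VCAM1, ICAM1 and PECAM1 are below 0 in animals 17 and 20 and above 0 in animals 22 and 23.

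The integrins and other partners of VCAM1, ICAM1, ALCAM, CD200 and PECAM1 formed a list of 12 genes, of which 6 were tested, 0 rose and 1 fell. ITGB7, an integrin chain that pairs with ITGA4 in a receptor of VCAM1, fell from 5.39 ± 4.36 CPM in N to 1.13 ± 0.719 CPM in A clones (± SD, n = 10 per group), with a log2 fold change of -2.25 (SE 0.536, edgeR adjusted p = 0.00936). ITGA4 itself reached 16.6 CPM in A and 6.87 CPM in N clones, with a log2 fold change of 1.37 (SE 1.34, edgeR adjusted p = 0.482). The chains of the leukocyte receptor of ICAM1 were near 0, with at most 1 count of ITGAL and 3 counts of ITGB2, and CD38, a ligand of PECAM1, reached 14 counts.

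The 13 genes of the TNF and NF-kB response, the pathway through which cytokines induce VCAM1 and ICAM1, were all tested, and 4 rose and 0 fell in A clones. Over all genes tested, 10.3% were higher and 10.3% lower in A clones. TNFAIP3, a feedback inhibitor of NF-kB, rose from 4.90 ± 2.67 CPM in N to 33.4 ± 22.2 CPM in A clones (± SD, n = 10 per group; log2 fold change 2.68, SE 0.314, edgeR adjusted p = 0.000169). TNFAIP2, IL6 and CCL2 rose with log2 fold changes of 4.37 (SE 0.802, edgeR adjusted p = 0.0025), 3.78 (SE 0.565, edgeR adjusted p = 0.000792) and 3.49 (SE 1.07, edgeR adjusted p = 0.0307). The median levels of TNFAIP2 and IL6 in N clones were 0.185 and 0.119 CPM, a few counts per library, so the sizes of their fold changes are uncertain. CCL2 ran from 0 to 227 CPM in N clones with a median of 1.56 CPM, and the size of its fold change is uncertain too. TNFAIP2 was at 8.77 CPM or more in every A clone and passed the filter on low counts through these clones, so its call is a description only. NFKBIA, NFKB1, NFKB2, RELB, BIRC3, CXCL8, IRF1, TRAF1 and SOD2 did not pass the test. DESeq2 tested 12 of the 13 and called 3 higher.

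Over all 98 related genes of the 7 lists, counted once, 96 were in the table and 57 were tested, of which 11 rose and 3 fell in A clones. This was 24.6% of those tested, against 20.6% of all genes. The lists were also chosen with earlier results known, so these shares are a description. The remaining lists held other ICAMs and junctional molecules, with 1 of 7 tested genes higher and 0 lower, and IgLON and further Ig-family genes, with 2 of 16 higher and 2 lower. CLMP, a junctional relative of CXADR also known as adipocyte adhesion molecule, rose from 68.9 ± 31.6 CPM in N to 158 ± 49.0 CPM in A clones (± SD, n = 10 per group), and 9 A clones exceeded every N clone (log2 fold change 1.22, SE 0.316, edgeR adjusted p = 0.0139). CDON, a coreceptor of hedgehog ligands, fell from 163 ± 128 CPM in N to 44.2 ± 15.9 CPM in A clones, with 9 N clones above every A clone (log2 fold change -1.79, SE 0.352, edgeR adjusted p = 0.0034). EMB, which escorts monocarboxylate transporters to the membrane, rose at low levels (log2 fold change 3.07, SE 0.898, edgeR adjusted p = 0.0247). Its median in N clones was 0.247 CPM, so the size of this fold change is uncertain, and A clone 23-108, with 1 count, lay below every N clone. NPTN, a relative of EMB, rose by 0.64 on the log2 scale (SE 0.121, edgeR adjusted p = 0.00285), whereas KIRREL1 fell by 0.32 (SE 0.0838, edgeR adjusted p = 0.0155).

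**Figure D4:**
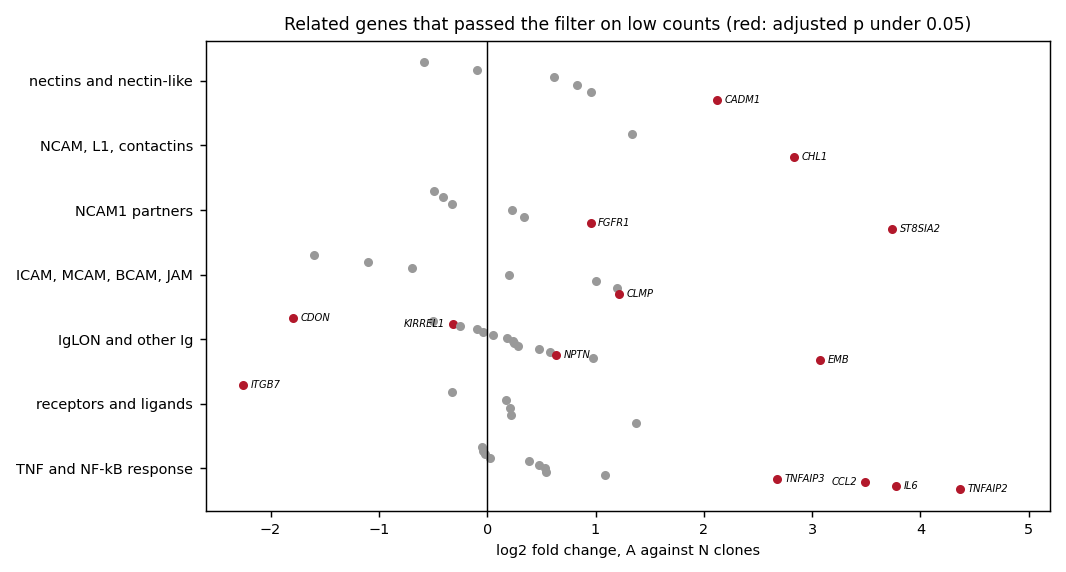
Log2 fold change, A against N clones, of the related genes that passed the filter on low counts, grouped by list. Each point is 1 gene, red and named where the edgeR adjusted p was under 0.05. Of the 57 genes, 11 are red to the right of 0 and 3 to the left, and 4 of the 11 are in the TNF and NF-kB list.

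Differences between the animals did not pass the test for the members. In the contrast of animal 23 against animal 22, edgeR called 0 of the 9 members, with 0 at an unadjusted p under 0.05, and DESeq2 called 0, with 1 at an unadjusted p under 0.05, compared with 0.14% of all genes called by edgeR. The largest fitted differences were those of L1CAM, -1.65 on the log2 scale (SE 0.852, edgeR adjusted p = 0.505), and PECAM1, -1.51 (SE 0.895, edgeR adjusted p = 0.582). For the interaction of condition and animal, edgeR called 0 of the 9 members and 0.031% of all genes, with VCAM1 and CD200 as the 2 members at an unadjusted p under 0.05, and DESeq2 called 0, with 4 members at an unadjusted p under 0.05. On simulated counts, the interaction test recovered 9.71% of 2-fold and 56.7% of 4-fold interactions. An interaction that was not called therefore does not show that the animals were alike. Animals 17 and 20 had 1 clone per condition, so their differences have no replicate within the animal.

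**Figure D5:**
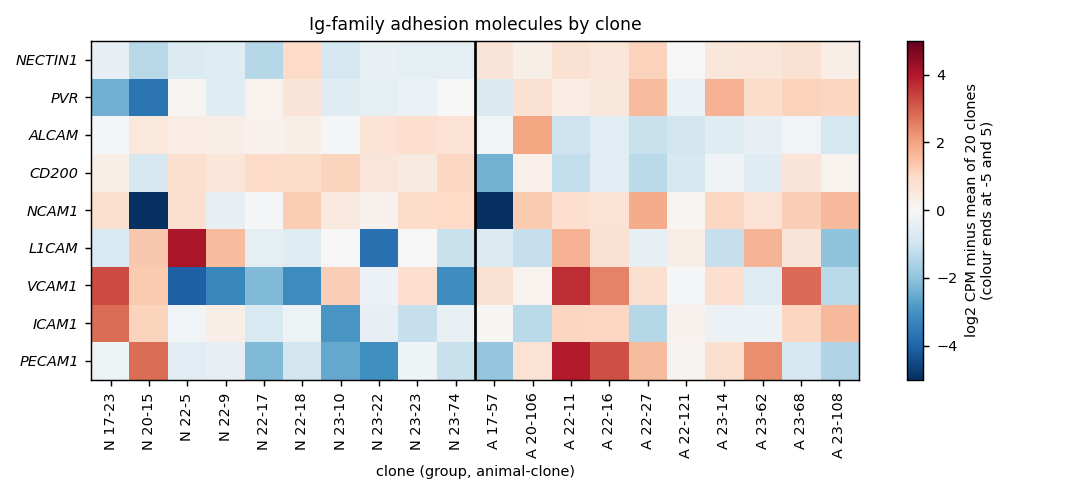
Log2 CPM of each tested member in each clone, minus its mean over the 20 clones, with red above and blue below the mean and the colour ending at -5 and 5. N clones are on the left and A clones on the right of the line. The darkest blue fields are NCAM1 in N clone 20-15 (0.246 CPM) and A clone 17-57 (1.09 CPM), and the darkest red field among N clones is L1CAM in clone 22-5 (244 CPM).

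Some clones held several of the extreme values of the members. How often the same clones were extreme in the other tested genes was not determined, so these counts are a description. A clone 17-57 was the lowest A clone for 4 of the 9 tested members, NCAM1, CD200, PVR and PECAM1, and N clone 20-15 was the lowest N clone for 3, NCAM1, CD200 and PVR. The same 3 genes were therefore lowest in 1 clone of each group, and these clones came from different animals. NCAM1, CD200 and PVR were correlated within groups and are not 3 separate observations. Pearson's r of log2 CPM between them was 0.579 to 0.757 within A and 0.786 to 0.889 within N clones. Clone 20-15 was at the same time the highest N clone for PECAM1 and the third highest for L1CAM. A clone 22-11 was the highest A clone for VCAM1, PECAM1 and L1CAM, and N clone 22-18 the highest N clone for NECTIN1, PVR and NCAM1. In A clone 17-57 the endothelial markers also summed to their highest level among A clones, 71.3 CPM, most of it EMCN at 56.1 CPM, and the sums in N clones 17-23 and 20-15, 42.4 and 42.0 CPM, were the highest among N clones. The part of these markers in the levels of the members was not tested.

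Spread within a group differed between members. Over N clones, the SD of log2 CPM was smallest in ALCAM, at 0.32, near the median of 0.38 over all tested genes, and over A clones it was smallest in NECTIN1, at 0.31, near the median of 0.34. The largest SDs were those of NCAM1, at 2.37 over A and 2.76 over N clones. VCAM1 followed among N clones, at 2.52, and PECAM1 among A clones, at 1.97. The ratio of the highest to the lowest clone within a group ran from 2.16 in A clones for NECTIN1 and 1.92 in N clones for ALCAM to 320 in A and 946 in N clones for NCAM1. PECAM1 in N clones is left out of this range, since its lowest clone had 0 counts and the ratio is undefined.

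The genes most like each member across the 20 clones are given as a description, by Pearson's r of log2 CPM, which is shaped by the group difference, by shared libraries and, for some members, by single clones. NECTIN1 was most like MGAT5 (r = 0.908), MICU3 (0.873) and PID1 (0.862), and these r values were 0.771, 0.738 and 0.630 within A clones and 0.824, 0.645 and 0.621 within N clones. PVR was most like ETF1 (0.905), TIMM22 (0.904) and TMEM181 (0.903). For ETF1, r was 0.522 within A and 0.988 within N clones. CD200 was most like LOC112445980 (0.931), COL11A1 (0.903) and ADGRA3 (0.869), which gave 0.926, 0.940 and 0.910 within A clones and 0.768, 0.697 and 0.533 within N clones. ALCAM was most like MFGE8 (0.856), SMCHD1 (0.849) and KCNMA1 (0.816), and NCAM1 was most like CDH8 (0.883), SLIT2 (0.833) and LARP1 (0.814). For NCAM1 the rank correlations were lower, at 0.558, 0.438 and 0.699. The genes nearest to VCAM1 were COLEC12 (0.873), MFSD4B (0.857) and ISLR (0.845), and those nearest to ICAM1 were ZNF397 (0.805), C27H8orf48 (0.796) and TNFRSF4 (0.730). L1CAM was closest to TELO2 (0.821), CHERP (0.791) and PTCD1 (0.775), and PECAM1 to ZNF200 (0.839), HAS2 (0.831) and INSC (0.825).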

How the data were processed

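RNA of 20 undifferentiated clones was sequenced as directional paired-end libraries. The values deposited by the authors are raw counts of each gene in each clone. According to the submitters' processing notes and the study's methods, reads were trimmed with Trimmomatic 0.36, mapped to ARS-UCD 1.2 with STAR 2.5.2b, and unique reads within exons were counted with featureCounts of Subread 1.5.2. The strand setting and the treatment of overlapping genes are not given in the sources used here, and genes that overlap, lie antisense or are nearly identical therefore have uncertain counts. Genes are named as in the table, and no sequences or coordinates are given.

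A row without a name, with 0.113% to 0.333% of a clone's counts, was dropped. The number of columns outside the series was 0. edgeR 4.0.16 was run on the counts under R 4.3.3 (normalization by TMM, the default filter by condition, a robust quasi-likelihood F test and Benjamini-Hochberg adjustment over 12900 genes), with animal as a block. The call threshold was an adjusted p under 0.05, with a 2-fold change given beside it. For log2 CPM a prior count of 2 was used, and a count of 0 was taken to allow up to 3 counts. The interaction was fitted on the clones of animals 22 and 23. The study paired A and N clones by animal. The correlation between the deviations of A and of N clones was 0.254 (animal 17), 0.188 (animal 20), 0.230 (animal 22) and 0.444 (animal 23), over all genes tested. A and N clones of different animals were not compared in this way. The exact permutation test enumerated 19600 arrangements within animals, and its p-values are not adjusted over the 9 members.

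Alternatives were no block, DESeq2 size factors, upper-quartile normalization, other filters, DESeq2 1.42.0, limma 3.58.1 voom, no robust dispersion, sums per animal and condition, single animals, and each animal or clone left out. Leaving out animals 17 and 20 together was added after the data were seen. The tests were checked on simulated counts.

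The members and lists were chosen with earlier results of these data known. Named from the 7 lists of related genes (nectins and nectin-like genes, NCAM, L1 and contactin genes, NCAM1 partners, ICAM and junctional genes, IgLON and other Ig genes, receptors and ligands, TNF and NF-kB response genes) and from the marker lists were genes past both thresholds, at most 5 per list, and direct binding partners. For each member, the 3 genes with the highest Pearson correlation over the 20 clones were named. FGFR1, NPTN, KIRREL1, IGSF9B, NRCAM, CNTN3, SDK2, the TNF genes that did not pass and the single markers quoted were chosen after their values were seen.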

Additional observations from a re-analysis of the deposited data

Results flagged for a closer look

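For each tested member and group of 10 clones, the gap between the most extreme clone and its neighbour was taken as a share of that group's whole range of log2 CPM and set against Dixon's critical value. In 6 of 18 groups 1 clone stood apart. For independent and normally distributed values, about 1 in 20 groups, or 0.9 of 18, would pass the critical value. The clones do not meet this condition, since many shared an animal and N clone 20-15 stood apart for NCAM1, CD200 and PECAM1. How often a clone stood apart in the other tested genes was not determined. Whether the members held more such clones than other genes therefore cannot be said.

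NCAM1 stood out in both groups. The gap of A clone 17-57, the lowest of its group, was 0.786 of the range, and that of N clone 20-15, also the lowest, was 0.818. A clone 17-57 had 16 counts of NCAM1 and N clone 20-15 had 4 counts. N clone 20-15 was also apart as the lowest N clone for CD200, at 0.570, and as the highest N clone for PECAM1, at 0.516. For ALCAM, A clone 20-106 was apart as the highest A clone, at 0.687, and for NECTIN1, N clone 22-18 was apart as the highest N clone, at 0.547. Animals 17 and 20 supplied 5 of the 6 values, and each of these animals has 1 clone per condition, so that clone and animal cannot be told apart there.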

How the results depend on the processing

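Of the 9 members tested, 4 were called between A and N clones. This number was 0 when counts were summed per animal and condition, with 2 members at an unadjusted p under 0.05, and then 0 of all genes were called. It was 2 without animal 22, leaving NECTIN1 and PVR, and 0 without animal 23, with 2 at an unadjusted p under 0.05, where 32 of all genes were called instead of 2658. It lay between 4 and 5 when 1 clone was left out in turn, was 6 in DESeq2's Wald test, which added VCAM1 (log2 fold change 2.23, adjusted p = 0.0248) and PECAM1, and was 3 without the replicate block, where ALCAM, at -0.44, lost its call. On simulated counts, DESeq2 gave more false calls than edgeR, 49 against 3. It also recovered more true changes, 71.3% against 65.3% of 2-fold and 91.9% against 84.8% of 4-fold changes. These counts were drawn with dispersions fitted by edgeR. NECTIN1, PVR, ALCAM and CD200 were called in every edgeR fit without 1 clone. PECAM1 gained a call without animal 17, without animal 20 and without each of their 4 clones.

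Directions changed for members that were not called. ICAM1 was -0.088 without the replicate block, -0.63 with summed counts and -0.34 without animal 23. L1CAM was 0.45 without animal 22, 1.13 in animal 23 alone, and ran from -0.85 to 0.38 when 1 clone was left out, with the change of sign at N clone 22-5. Of 329 fold changes of members under alternatives, 298 kept direction and side of the threshold, 14 lost and 11 gained a call (1 of them, PECAM1, by the unadjusted exact permutation test), and 6 changed sign. The block changed no call other than that of ALCAM. The cause of these changes was not tested. Normalization with DESeq2 size factors or upper quartiles left 4 members called. The counts of called related genes moved with the upper-quartile scaling in 2 lists, by 1 gene each that fell. DESeq2's Wald test called 4114 of all genes, and it gave 3 higher and 1 lower among the nectins and nectin-like genes, 6 higher among NCAM, L1 and contactin genes and 6 higher and 2 lower among IgLON and other Ig genes. Without animal 23, 1 related gene was called, in the TNF and NF-kB list. PECAM1, VCAM1 and NCAM2 are limited by depth, with clones at 0, 1 and 0 counts.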

Other observations

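Among the 39 related genes that did not pass the filter, IGSF9B, an immunoglobulin-family molecule of neuronal contacts, separated the groups completely without being tested. Its level was 0.613 to 128 CPM in A clones with a median of 5.61 CPM, and 0 to 0.06 CPM in N clones, where it had at most 1 count. The highest values were those of A clones 22-11, 22-16 and 23-14, with 3533, 1178 and 762 counts. The lowest A values, in clones 17-57 and 20-106, rested on 9 and 14 counts. How often genes that did not pass the filter separate the groups completely was not determined. The neuronal adhesion molecules NRCAM and CNTN3 were also found mainly in A clones. NRCAM had up to 664 counts in A and at most 1 count in N clones, and CNTN3 had counts in 8 A clones, up to 17, and 0 counts in all N clones. SDK2 lay above every N clone in 7 A clones, at up to 5.78 CPM against 0.36 CPM. No fold change is given for these genes, and they were chosen after their values were seen. DESeq2, which tests more low genes, called 6 of 8 tested genes of the NCAM, L1 and contactin family as higher in A clones and 0 as lower, and over all genes it called 4114 of 17527. On simulated counts with 200 changed genes, DESeq2 gave 49 false calls and edgeR gave 3, while DESeq2 recovered 71.3% and edgeR 65.3% of 2-fold changes. edgeR called 1 of 2 tested genes of this list, and 0 without animals 17 and 20.

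Of the marker lists not described above, 3 of 7 tested smooth muscle and pericyte genes rose and 0 fell, with summed levels of 971 to 9064 CPM in A and 130 to 6217 CPM in N clones. Over all genes tested, 10.3% were higher and 10.3% lower in A clones. Schwann and glial markers had 1 tested gene, which rose, and skeletal muscle progenitor markers had 1, which did not pass the test. SOX10 and MYOD1 had 0 counts in all clones. Macrophage and leukocyte markers summed to 2.86 to 12.7 CPM in A and 0.885 to 11.5 CPM in N clones, and the 1 tested gene, CD68, rose with a log2 fold change of 1.06 (SE 0.281, edgeR adjusted p = 0.0157).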
